A study of Mus musculus with 30 samples.

Results

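The immediate early genes *Fos*, *Fosb*, *Jun*, *Junb*, *Jund*, *Egr1*, *Ier2*, *Ier5* and *Atf3*, together with *Myc*, were examined in spermatogonial stem cell (SSC) lines. These 10 genes were chosen by name and not by any measured value, as mRNAs that are known for short lives. Earlier results of these data were known when they were chosen. All 10 were among the 13904 genes with an FPKM value (reads scaled to transcript length and library depth), and 7 of the 10 were among the 5806 transcripts with a half-life. *Fosb*, *Myc* and *Atf3* have no half-life in the tables used here.

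SSC lines are cultures of mouse spermatogonial stem cells grown on fibroblast feeders, here derived from testes of mice of mixed DBA/2J and C57BL/6 background at postnatal day 7. Both lines carried a tagged allele of *Nanos2*, the gene of an RNA-binding protein of SSCs, with V5, Myc, protease site, His and EGFP sequences at the N-terminus. Line 4 was heterozygous (*Nanos2* TAG/+) and line 5 homozygous (*Nanos2* TAG/TAG). Each genotype was 1 line, and no line without NANOS2 was part of these measurements. RNA-seq was performed on 1 library per line after depletion of feeders and of ribosomal RNA, with QIAzol for the TAG/+ line and Trizol for the TAG/TAG line per the labels, so genotype, line and reagent cannot be told apart. The methods describe the RNA as isolated from SSCs that were sorted away from residual feeder fibroblasts. The columns of the RNA-seq table are headed by 2 letters for each line, which no label spells out and which were read as the homozygous and the heterozygous genotype, so the direction of every FPKM difference rests on that reading. For SLAM-seq, RNA was labelled with 4-thiouridine, the label was chased over 6 time points with 2 technical replicates each, and 1 half-life per transcript was fitted over the 12 libraries of a line. SLAM-seq thereby gave 1 value per line without an error or a depth, and no test was made between the lines. The medium was replaced at the start of the chase, and decay was fitted to the rate of T to C conversions, which mark the label. Whether that change of medium altered the transcription of these genes was not tested. The half-life tables were assigned to the lines by their own names, which differ from those that the labels give for them.

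Immediate early genes are transcribed within minutes of a growth factor or stress signal, from factors that are already present in the cell, and their mRNAs are removed again soon after. FOS and FOSB pair with JUN, JUNB or JUND to form AP-1, a dimeric transcription factor, and ATF3 can join the same network. EGR1 is a zinc finger transcription factor downstream of ERK signaling, IER2 and IER5 are related nuclear proteins induced by growth factors and stress, and MYC is a transcription factor of growth and proliferation. The 3′ UTRs of many such mRNAs hold AU-rich elements, runs with the core AUUUA, which recruit proteins that shorten the poly(A) tail or stabilize the mRNA. NANOS proteins are known to recruit the CCR4-NOT deadenylase, and SSC cultures are supplied with growth factors that act through kinases upstream of immediate early genes.

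AUUUA was found in the 3′ UTR of 9 of the 10 genes, compared with 72.6% of the 3′ UTRs of 5781 transcripts with a half-life. A 3′ UTR was read from 1 coding transcript per gene of GENCODE M21 (GRCm38). The stretches of 30 bases with most AUUUA matches are shown for *Fos*, *Jun*, *Junb*, *Ier5* and *Jund*, which have a half-life. They run 5′ to 3′ on the sense strand, with each AUUUA in capitals. *Ier2* has no match, and the stretch of *Egr1* is not shown.

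*Fos*: uuguguuuucaAUUUAUUUAuuaagaugga

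*Jun*: aucAUUUAuaaucauaggaaagAUUUAgua

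*Junb*: aauauauuuguguAUUUAacagggagggga

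*Ier5*: ggagguuggcuaaAUUUAauucucauguag

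*Jund*: ccgauuccgcccuAUUUAuguuucuacucg

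The *Fos* stretch lies at chr12:85477100-85477129 on the plus strand, in the last of 4 exons. The others lie in coding transcripts that have a single exon. On the minus strand they are at chr4:95049207-95049236 (*Jun*), chr8:84977127-84977156 (*Junb*) and chr1:155096847-155096876 (*Ier5*). That of *Jund* is at chr8:70700358-70700387 on the plus strand. In *Fos*, both AUUUA cores overlap by 1 base. This run also holds the longer core UUAUUUAUU, which contains AUUUA. *Fos* was the only 1 of the 10 genes with UUAUUUAUU, which 8.82% of the 3′ UTRs of transcripts with a half-life hold. A match to these letters is a description of the sequence and not a measured binding site.

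*Jund* and *Egr1* had the highest RNA levels of the set in both lines, and *Atf3* and *Ier5* the lowest. *Jund* encodes the JUN family member that is made in many resting cells, and its FPKM was 81.4 in TAG/+ and 86.0 in TAG/TAG, above 88.3% and 89.0% of all genes. *Egr1* had an FPKM of 54.4 in TAG/+ and 48.6 in TAG/TAG. *Fos*, the AP-1 subunit with the best known transient induction, had an FPKM of 28.8 in TAG/+ and 46.6 in TAG/TAG. The genes therefore spanned a 145-fold range of FPKM in TAG/+ and a 47.2-fold range in TAG/TAG, around a median gene of 10.2 and 10.5.

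*Ier2* had an FPKM of 16.3 in TAG/+ and 31.1 in TAG/TAG. The other JUN genes were near the median gene, with *Junb* at 11.8 and 14.1 and *Jun* at 8.54 and 10.3. *Fosb*, the second FOS gene of the set, was at 2.80 and 2.66. *Fosb* was thus the lower of both FOS genes in both lines. *Myc* was at 2.22 in TAG/+ and 4.22 in TAG/TAG. *Ier5* was at 0.588 and 1.82 and *Atf3*, a stress-induced factor, at 0.562 and 1.91. In TAG/+, these lowest levels were above only 8.16% and 7.83% of all genes, and in TAG/TAG above 18.5% and 19.3%.

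FPKM was computed by the authors with the mean length of all annotated transcripts of a gene, and multiplication by that length gave whole reads for 100% of 13884 genes. The number of reads behind each level can therefore be given. *Egr1* had 2230 reads in TAG/+ and 2143 in TAG/TAG, whereas *Atf3* had 9 and 33, *Ier5* 21 and 70, and *Myc* 41 and 84. The counting intervals (95%, exact Poisson) of neighbors in the order of FPKM overlapped for *Fosb* and *Myc* and for *Ier5* and *Atf3* in TAG/+, and for *Egr1* and *Fos*, for *Fosb* and *Atf3* and for *Atf3* and *Ier5* in TAG/TAG. They cover counting error only, since each line had 1 library.

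**Figure D1:**
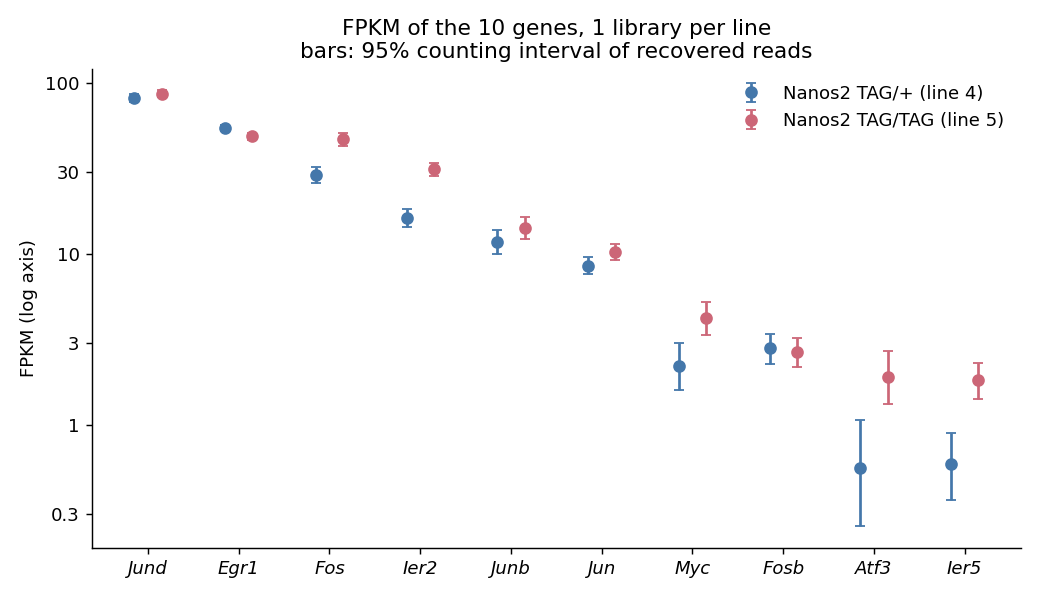
FPKM (log axis) of the 10 genes in the *Nanos2* TAG/+ and the *Nanos2* TAG/TAG library. Points are the values of 1 library each and bars the 95% counting interval of the recovered reads; *Jund* was highest at 81.4 and 86.0, and *Atf3* and *Ier5* were below 2 in both libraries.

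Some levels depended on the length. The short noncoding transcripts annotated for *Fos* bring its mean transcript length to 1092 bases, compared with 2108 for its longest coding transcript. With the latter length, FPKM of *Fos* was 14.9 in TAG/+ and 24.1 in TAG/TAG, below *Ier2* in both lines, with counting intervals that overlapped in TAG/+ and not in TAG/TAG. FPKM of *Junb* was then 7.50 and 8.99, below *Jun* but with overlapping intervals, and that of *Egr1* was 45.6 and 40.7. This alternative was chosen after seeing the data, and it does not alter any ratio between the lines. *Jun*, *Junb* and *Jund* share exonic bases with an annotated gene on the other strand (*Junos*, *Prdx2* and *Gm11175*, respectively), and their levels are uncertain to that extent because the strand setting of the counting is not given in the sources used here. No other annotated exon overlaps those of the other 7 genes.

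Next, the levels of the lines were compared. FPKM was higher in TAG/TAG for 8 of the 10 genes and lower for *Egr1* and *Fosb*. Of all 12546 genes with a mean FPKM of 1 or more, 49.8% were higher in TAG/TAG. The median log2 ratio (TAG/TAG over TAG/+, pseudocount 0.1) was 0.48 over the 10 genes and -0.0025 over all 12546 genes. Only *Atf3* and *Ier5* were past 2-fold higher, which makes 2 of 10 genes beside 11.7% of all genes, and 0 of 10 were past 2-fold lower beside 8.67% of all genes. With 1 library per line, these ratios have no replicate check.

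*Ier2* was 1.91-fold higher in TAG/TAG (95% counting interval 1.65 to 2.22). *Fos* was 1.62-fold higher (1.41 to 1.85). For these genes, which had 270 reads or more in each library, the interval stayed above 1. *Myc* was 1.90-fold higher (1.30 to 2.84). *Ier5* was 3.10-fold higher (1.88 to 5.31) and *Atf3* 3.41-fold (1.60 to 8.10), both from few reads in TAG/+. The widest intervals of the set are thus those of the genes with the largest ratios.

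The JUN genes differed less. *Jun* was 1.20-fold higher in TAG/TAG (1.03 to 1.40). *Junb* was also 1.20-fold higher (0.963 to 1.50) and *Jund* 1.06-fold (0.984 to 1.13). *Fosb* had a ratio of 0.948 (0.712 to 1.26) and *Egr1* of 0.893 (0.841 to 0.948). The counting interval was above 1 for 6 genes and below 1 for *Egr1*, and it held 1 for *Fosb*, *Junb* and *Jund*. The interval of *Fos* thus lay above 1, whereas that of *Fosb*, a gene of the same family, held 1.

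**Figure D2:**
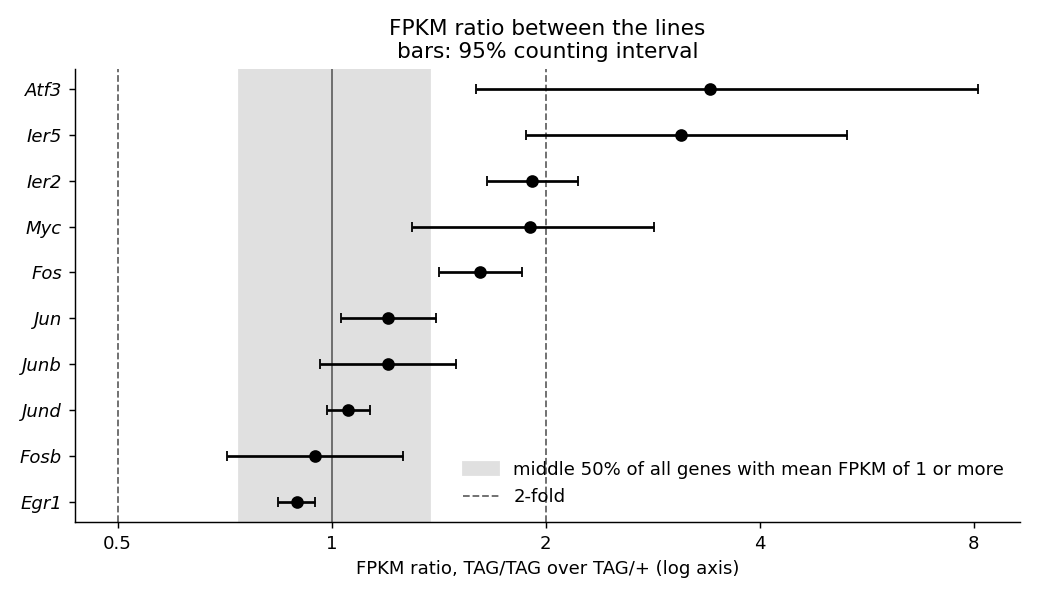
Ratio of FPKM (TAG/TAG over TAG/+, log axis) of the 10 genes, 1 library per line. Points are ratios, bars 95% counting intervals, dashed lines 2-fold and the gray band the middle 50% of all 12546 genes; *Atf3* (3.41) and *Ier5* (3.10) lie past 2-fold.

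The cell type markers differed between the libraries as well. Of the markers of undifferentiated spermatogonia, 5 of 13 were past 2-fold higher in TAG/TAG and 0 lower (11.7% and 8.67% of all genes, respectively), and 6 of the 13 had a lower FPKM in TAG/TAG, including *Nanos3* (90.8 and 65.4), *Sall4* (214 and 192) and *Nanos2* itself (27.5 and 23.8). The summed FPKM of the 13 was 803 in TAG/+ and 1254 in TAG/TAG. The 5 genes past 2-fold were *Bcl6b* (FPKM 23.1 and 225), *Etv5* (46.0 and 178) and *Lhx1* (11.6 and 26.1), which are known as targets of GDNF signaling, *Ret* (73.2 and 181), a receptor of GDNF, and *Utf1* (3.88 and 11.5). Fibroblast markers summed to 351 and 445, of which *Fn1* made up 254 and 280. Of these 11 markers, 10 had a higher FPKM in TAG/TAG and 1 a lower, beside 49.8% of all genes higher. *Thy1*, *Dcn* and *Pdgfrb* were past 2-fold higher, 3 of 11 beside 11.7% of all genes. The 3 Sertoli cell markers measured were each past 2-fold higher, with sums of 5.35 and 26.5, of which *Wt1* made up 2.51 and 19.6. *Cd68*, the only macrophage marker measured, was at 2.80 and 10.2, and *Star*, the only Leydig cell marker measured, at 4.62 and 1.20. The 6 markers of differentiating spermatogonia summed to 259 and 190, with none past 2-fold. None of the markers measured was listed at 0, but others chosen were not among the genes with an FPKM value. Absent were *Dazl* for undifferentiated spermatogonia, *Lum*, *Acta2* and *S100a4* for fibroblasts and *Amh* for Sertoli cells. *Cyp17a1*, *Cyp11a1* and *Insl3* for Leydig cells and *Adgre1*, *Csf1r* and *Ptprc* for macrophages were absent as well. The part of the measured markers in the ratios of immediate early genes was not tested. More cells of a type cannot be told apart from more RNA per cell in these bulk samples.

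The 7 genes with a half-life fell in the same order in both lines, from *Ier2*, *Ier5*, *Junb*, *Fos* and *Jun* to *Egr1* and *Jund*. *Ier2* had the shortest half-life of the set, 67.8 min in TAG/+ and 53.7 min in TAG/TAG. Counted from the shortest of the 5806 transcripts, *Ier2* ranked 68 in TAG/+ and 59 in TAG/TAG. Of these transcripts, 18 were shorter-lived than *Ier2* in both lines. *Ier5* had half-lives of 81.2 and 78.6 min, and *Junb* of 81.9 and 92.5 min. *Fos* had half-lives of 92.9 and 99.5 min, and *Jun* of 107 and 112 min. These 5 mRNAs made up the short-lived end of the set in both lines. *Egr1* lasted longer, with half-lives of 145 and 135 min. *Jund* stood apart from the others, at 296 min in TAG/+ and 289 min in TAG/TAG, above 76.7% and 72.3% of all transcripts.

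The range over both lines did not overlap between any neighbors in this order, but some gaps were small. The values of *Ier5* and *Junb* came within 0.723 min of each other, and those of *Junb* and *Fos* within 0.424 min, less than the distance between the lines for either gene. The order of *Ier5*, *Junb* and *Fos* is thus not resolved beyond the spread of the lines. From *Jun* to *Egr1* the smallest gap was 22.6 min, and from *Egr1* to *Jund* it was 144 min. *Jund* is therefore separate from its paralogs *Jun* and *Junb* by more than any difference between the lines.

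The median half-life of the 7 genes was 92.9 min in TAG/+ and 99.5 min in TAG/TAG, compared with 224 and 226 min for all transcripts. A half-life under 120 min was found for 5 of 7 genes in TAG/+ beside 11.8% of all transcripts, and for 5 of 7 in TAG/TAG beside 13.8%. They were the same 5 genes in both lines, whereas 6.37% of all transcripts were under 120 min in both. *Jun*, at 112 min in TAG/TAG, was the gene nearest below this limit and *Egr1*, at 135 min, the nearest above. With a limit of 90 min, 3 of 7 genes remained in TAG/+ and 2 of 7 in TAG/TAG, beside 4.53% and 6.32% of all transcripts. The first sample after the start of the chase was taken at 30 min, which no half-life of these genes was under.

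**Figure D3:**
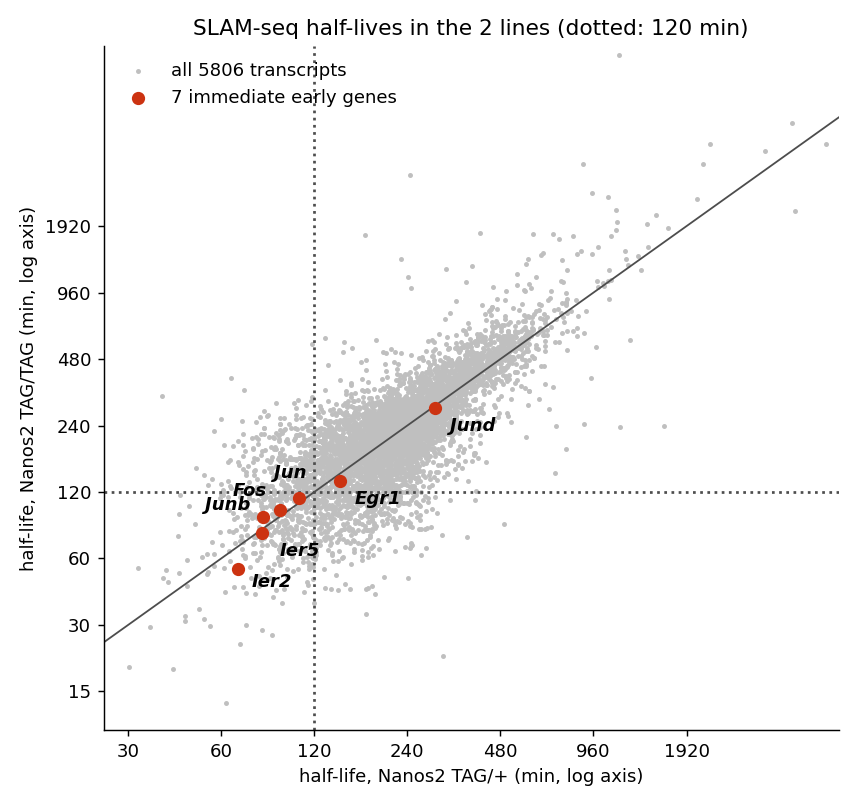
Half-lives (min, log axes) of all 5806 transcripts in *Nanos2* TAG/+ (x) and *Nanos2* TAG/TAG (y), with the 7 genes in red, the diagonal and dotted lines at 120 min. *Ier2*, *Ier5*, *Junb*, *Fos* and *Jun* lie below 120 min on both axes, *Egr1* just above, and *Jund* at 296 and 289 min.

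Half-lives of the 7 genes differed little between the lines. The half-life of *Ier2* was 14.1 min shorter in TAG/TAG, which was the largest difference of the set, and that of *Egr1* 10.1 min shorter. *Junb* had a half-life 10.6 min longer in TAG/TAG. For the other 4 genes the lines were within 7 min of each other (*Jund* 6.87, *Fos* 6.54, *Jun* 5.02 and *Ier5* 2.60 min). In all, 3 genes had a longer and 4 a shorter half-life in TAG/TAG. The median size of the log2 ratio of half-lives was 0.098 for these genes, compared with 0.27 for all transcripts and 0.41 for the 595 transcripts with a mean half-life under 120 min. Of these 595, 42.5% had a ratio no larger than that of *Ier2*.

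Levels and half-lives can be set side by side, although they come from separate libraries of the same lines. For *Ier2*, FPKM was 1.91-fold higher in TAG/TAG whereas the log2 ratio of half-lives was -0.34. For *Ier5*, with FPKM 3.10-fold higher, the log2 ratio of half-lives was -0.047. For *Fos*, with FPKM 1.62-fold higher, it was 0.098. The genes with higher FPKM in TAG/TAG thus included both those with shorter and those with longer half-lives there. *Egr1* had the lower value in TAG/TAG in both measurements.

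The listing of a half-life went with the RNA level. Of genes with a mean FPKM of 1 to 5, as for *Fosb*, *Myc*, *Ier5* and *Atf3*, 11.2% had a half-life, compared with 38.2% at 5 to 20 and 60.9% at 20 to 100. *Ier5* is thus the only 1 of the 4 low genes with a half-life, at 21 and 70 RNA-seq reads. The filter that the authors applied to transcripts for the half-life tables is not given in the sources used here.

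The number of AUUUA matches was then set against half-life. Over all transcripts with a 3′ UTR, the median half-life was 258 min in TAG/+ and 260 min in TAG/TAG without AUUUA (1585 transcripts) and 180 and 182 min with 8 or more matches (678 transcripts). Per 1000 bases of 3′ UTR, an alternative chosen after seeing the data, the median did not fall steadily with more matches. It was 212 and 216 min at above 0 to 2 matches (2057 transcripts) and 209 and 211 min at above 2 to 5 (1795 transcripts). For the 344 transcripts with more than 5 matches it was 235 and 243 min, so the difference from transcripts without AUUUA was smaller there. Of the transcripts with UUAUUUAUU, 11.96% had a half-life under 120 min in both lines, compared with 5.82% of those without. These are descriptions across transcripts, which also differ in 3′ UTR length and level.

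*Fos* and *Jun* each held 4 AUUUA matches, in 3′ UTRs of 815 and 1233 bases. *Fos*, with 4.91 matches per 1000 bases, was above 93.9% of transcripts in this measure, and *Junb*, with 2 matches in 485 bases, was above 90.3%. *Ier5* held 2 matches in 2143 bases and *Egr1* 2 in 1216 bases. *Jund*, the long-lived gene of the set, held 1 match in 533 bases. *Ier2*, the shortest-lived gene of the set, held 0 in 755 bases, and its 3′ UTR was 41.5% A and U compared with a median of 56.0%. The order of the half-lives of these genes was thus not the order of their AUUUA matches. Among the genes without a half-life, *Atf3* held 3 matches, *Myc* 2 and *Fosb* 1.

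**Figure D4:**
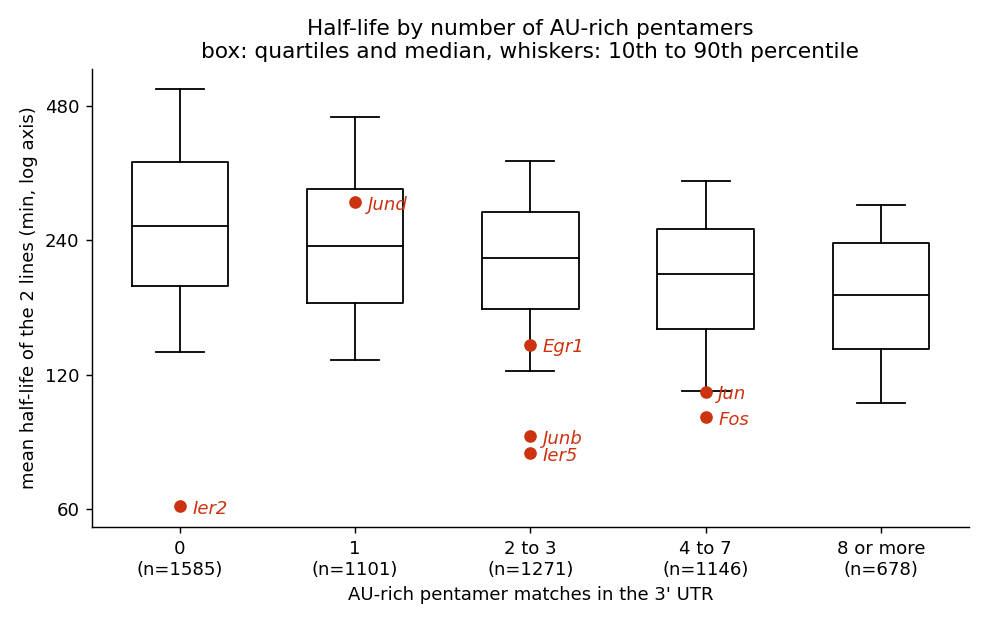
Mean half-life of both lines (min, log axis) by the number of AU-rich pentamers in the 3′ UTR, for all transcripts (boxes with quartiles and median, whiskers from the 10th to the 90th percentile) and the 7 genes (red). The medians fall from 258 to 181 min, *Ier2* lies at 60.8 min without a match, and *Jund* lies at 292 min with 1.

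A Pumilio motif, UGUANAUA, which is bound by partners of NANOS proteins, was found in 4 of the 10 genes, *Jun* (2 matches), *Ier5* (2), *Myc* (2) and *Egr1* (1). It is held by 29.7% of the 3′ UTRs of transcripts with a half-life. *Fos*, *Junb*, *Jund* and *Ier2* have half-lives and no match, and they include the shortest-lived and the longest-lived gene of the set. UGUANAUA does not contain AUUUA.

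Of the 10 genes, 5 have a coding transcript with a single exon (*Jun*, *Junb*, *Jund*, *Ier2* and *Ier5*). Only 1.68% of the transcripts with a half-life have a single exon, and the median of these 97 was 167 min in TAG/+ and 182 min in TAG/TAG, compared with 225 and 227 min for transcripts with several exons. A half-life under 120 min in both lines was found for 11.3% of single-exon transcripts and 6.28% of those with several exons. *Jun*, *Junb*, *Ier2* and *Ier5* were under this limit, and *Jund* was not. These 5 genes are themselves among the 97 single-exon transcripts and were chosen as mRNAs known for short lives. They thus contribute to the share and the medians of this small class, which are no independent comparison for them. By position (GRCm38), *Fos* spans chr12:85473890-85477273, *Fosb* chr7:19302696-19310051, *Jun* chr4:95049034-95052222, *Junb* chr8:84974484-84978718 and *Jund* chr8:70698949-70700616. *Ier2* spans chr8:84661331-84662852, *Ier5* chr1:155096361-155099636, *Myc* chr15:61985391-61990374 and *Atf3* chr1:191170296-191218039, and *Egr1* is on chromosome 18. *Jund*, *Ier2* and *Junb* are thus on the same chromosome, with *Ier2* and *Junb* the closer pair.

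Genes of the same pathway were grouped by their roles. Of the other immediate early and early response genes, 31 had a half-life, with medians of 113 min in TAG/+ and 145 min in TAG/TAG. Of these, 10 were under 120 min in both lines, beside the 6.37% of all transcripts. *Gadd45g*, a growth arrest and stress gene (50.9 and 35.3 min), *Csrnp1* (46.6 and 45.0 min) and *Ier3* (70.7 and 62.3 min) were the shortest-lived. *Gadd45g* and *Csrnp1* were thus shorter-lived than *Ier2* in both lines, and *Ier3* was not. Of 36 genes past the FPKM limit, 6 were past 2-fold higher in TAG/TAG and 0 lower, beside 11.7% and 8.67% of all genes, with a median log2 ratio of 0.17. *Dusp6*, the phosphatase of ERK and a target of its signaling, was at 14.2 in TAG/+ and 83.3 in TAG/TAG, and *Klf10* (188 and 176), *Socs3*, a feedback inhibitor of cytokine signaling (133 and 147), and *Egr4* (105 and 125) had the highest FPKM.

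Among partners of AP-1 and ATF factors, 3 of 11 genes were past 2-fold higher in TAG/TAG and 0 lower, beside 11.7% and 8.67% of all genes, with a median log2 ratio of 0.33. These were *Batf*, a dimer partner of JUN proteins (FPKM 3.82 and 17.9, from 31 and 156 reads), *Batf3* (8.56 and 19.6) and *Atf5* (2.92 and 9.06). *Nfe2l1* (118 and 149), *Atf7* (100.2 and 97.2) and *Atf1* (73.3 and 89.5) had the highest FPKM. The medians of 9 half-lives were 157 and 163 min, and 2 genes were under 120 min in both lines. *Atf4*, a factor of the integrated stress response, had half-lives of 92.4 and 99.8 min and *Ddit3*, which pairs with it, of 106 and 105 min. *Nfe2l2*, the oxidative stress factor, had half-lives of 161 and 102 min. *Ddit3* was thus between *Fos* (92.9 and 99.5 min) and *Jun* (107 and 112 min) in both lines, and *Nfe2l2* in TAG/TAG only. *Atf4* was beside *Fos* in both lines. Half-lives have no error, so the small gaps of *Atf4* to *Fos* and of *Ddit3* to *Jun* do not resolve an order.

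In the MYC network, 0 of 11 genes were past 2-fold in either direction, beside 11.7% (higher) and 8.67% (lower) of all genes, and the median log2 ratio was -0.16. *Mycn*, the paralog of *Myc*, was at 73.0 in TAG/+ and 80.1 in TAG/TAG and thus far above *Myc* itself, which had an FPKM of 2.22 and 4.22. *Max*, the obligate partner of MYC proteins, was at 84.6 and 87.1 and *Mga* at 56.8 and 62.0. *Mycn* had half-lives of 129 and 175 min and *Max* of 107 and 128 min. *Mnt*, a repressor that also pairs with MAX, had half-lives of 94.4 and 59.9 min and *Mlxip* of 160 and 109 min. *Mnt* was the only 1 of 8 genes of this list that was under 120 min in both lines.

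**Figure D5:**
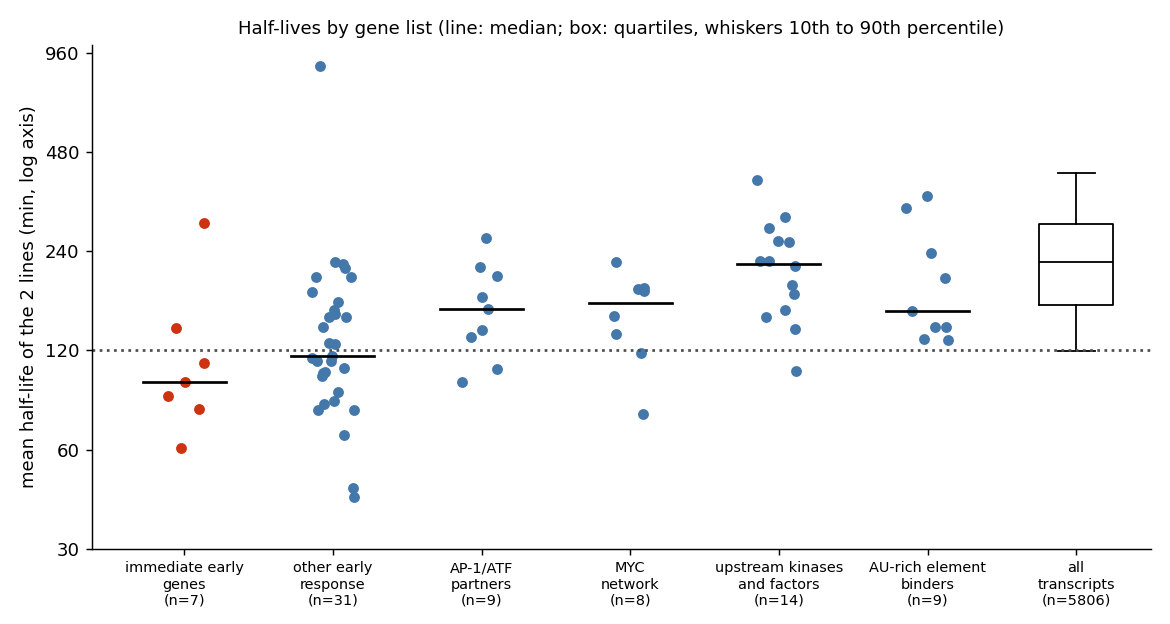
Mean half-life of both lines (min, log axis) of the 7 genes (red), of the other genes in each list (blue), with lines at the medians, and of all 5806 transcripts (box with quartiles, whiskers from the 10th to the 90th percentile). The median was 96.2 min for the 7 genes, 116 min for 31 other early response genes and 220 min for 14 upstream kinases and factors, and the dotted line is at 120 min.

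For each gene with all 4 values, the gene with the smallest Euclidean distance over FPKM and half-life in both lines (log2 scale) was found among 5144 genes. *Ier3*, another immediate early gene, was nearest to *Ier2* at a distance of 0.55. *Lrp6* was nearest to *Fos* (0.40), *Phip* to *Jun* (0.18) and *Chka* to *Junb* (0.21). *Ciapin1* was nearest to *Jund* (0.13), *Kansl3* to *Egr1* (0.12) and *Pi4k2b* to *Ier5* (0.40). *Ier2* thus had the largest distance to its nearest gene.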

How the data were processed

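Values of the SSC lines 4 and 5 were taken from RNA-seq and SLAM-seq, and 4 CRAC libraries among the 30 samples were not analysed here. The authors deposited FPKM of 1 RNA-seq library per line, and kallisto and DESeq2 are named in the submitters' processing notes. Half-lives (in min, a unit other than those of expression) were deposited as 1 value per transcript and line, which the authors had obtained by SlamDunk and nls over 12 libraries. Reads were recovered as FPKM times the mean GENCODE M21 transcript length, within 0.02 of whole numbers. FPKM was scaled to depths of 10908790 (TAG/+) and 11738620 (TAG/TAG), and the recovered reads summed to 10977831 and 11656606. Intervals were Clopper-Pearson (ratios) or exact Poisson (levels) at 95%. Log2 ratios used a pseudocount of 0.1, and shares of genes a mean FPKM of 1 or more. No p-value was computed. A 3′ UTR was taken from the APPRIS principal transcript where it has one, and otherwise from the coding transcript with the longest. Genes and lists were chosen with earlier results of these data known. From each list, the 3 genes with the highest mean FPKM, the 3 with the shortest mean half-life and those past 4-fold at a mean FPKM of 5 or more were named, and others named were chosen after their values were seen. 1 item is not reported here. Scripts were tested on simulated data. Python 3.11.15 with numpy 2.4.6 was used.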

Additional observations from a re-analysis of the deposited data

How the results depend on the processing

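No paired analysis was possible because each line had 1 RNA-seq library and 1 fitted half-life per transcript, and the replicate numbers of the labels are technical. The count of 2 genes past 2-fold higher in TAG/TAG was 0 with a limit of FPKM 5, which leaves out *Ier5* and *Atf3*, and 0 with a pseudocount of 1, which moved *Ier5* to a log2 ratio of 0.83. It stayed at 2 without an FPKM limit and after centring on the median of all genes, and the count past 2-fold lower was 0 under each of these 4 alternatives. The sign of the ratio of each of the 10 genes was kept under the 3 alternatives for it. A limit of 90 min left 3 (TAG/+) and 2 (TAG/TAG) of 5 genes. The median half-life ranged from 87.4 to 100.1 min in TAG/+ and from 96.0 to 106 min in TAG/TAG when each gene was left out in turn. UUAUUUAUU was found in 1 gene, compared with 9 for AUUUA, and the transcript with the longest 3′ UTR did not alter the count of 9. Low read numbers limit the ratios of *Atf3*, *Ier5* and *Myc*. Half-lives have no error or depth, so differences of a few minutes between genes or lines cannot be judged.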

Other observations

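The kinases and factors upstream of immediate early genes were compared between the lines in the same way. Of them, 7 had a higher and 9 a lower FPKM in TAG/TAG, with log2 ratios from -1.34 to 0.93. Of 16 measured, 0 were past 2-fold higher in TAG/TAG and 1 was past 2-fold lower, beside 11.7% and 8.67% of all genes, with a median log2 ratio of -0.13. That gene was *Mapk8*, a kinase that phosphorylates JUN, at an FPKM of 22.3 in TAG/+ and 8.79 in TAG/TAG. *Mapk3*, an ERK kinase (164 and 130), *Map2k2*, its activator (111 and 119), and *Mrtfa*, a coactivator of SRF (74.4 and 86.2), had the highest FPKM. The median half-life of their mRNAs was longer than that of the immediate early genes (92.9 and 99.5 min), at 229 and 210 min over 14 half-lives. Of these 14, 0 were under 120 min in both lines. *Jund*, at 296 and 289 min, was above the medians of this list. *Creb1*, which binds cAMP response elements, had half-lives of 133 and 74.8 min, *Mrtfa* (listed as *Mkl1*) of 166 and 112 min and *Mapk14*, the p38 kinase, of 153 and 150.03 min.

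Of 10 proteins that bind AU-rich or related elements, 0 were past 2-fold in either direction, beside the same shares of all genes, with a median log2 ratio of -0.099. *Ybx1* (685 and 605) and *Zfp36l1* (106 and 110) had the highest FPKM. *Zfp36l1*, which recruits the deadenylase to AU-rich elements, had half-lives of 127 and 131 min. *Tia1* had half-lives of 109 and 150 min and *Pum2* of 148 and 134 min. The medians over 9 half-lives were 167 and 150 min, and 0 were under 120 min in both lines.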
